A study of Homo sapiens with 8 samples.

Results

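The genes described here were 10 enzymes of androgen metabolism, UGT2B11, UGT2B15, UGT2B17, UGT2B28, AKR1C1, AKR1C2, AKR1C3, SRD5A1, HSD17B4 and HSD17B11, chosen by name from the 78691 genes of the count table. The choice was made with earlier results of these data known. Their RNA was measured in 8 poly(A) RNA-seq libraries from human prostate cancer cell lines, in 4 groups of 2 libraries. C4-2B, a castration-resistant adenocarcinoma line, was transduced with an empty lentivirus (control) or with one that expressed human MYCL, a MYC family transcription factor, from the EF1A promoter together with EGFP. NCI-H660, a neuroendocrine prostate cancer line, carried either non-targeting shRNA (shCtrl) or shRNA against MYCL (shMYCL). The series' design text and the study's methods name adenoviral knockdown of MYCL in this line. The sample labels instead speak of cells taken once the knockdown was stable, which the methods describe for a lentiviral shRNA. The methods give these vectors different numbers of MYCL shRNAs, so that number is open here. All cells were grown in RPMI-1640 with fetal bovine serum, which itself contains steroids, and each condition is a single line. Only the C4-2B control libraries are labelled as biological replicates, so the p-values below measure the spread between these libraries, which may be technical elsewhere. Permuting 2 libraries against 2 gives an exact p of 0.333 at best, so tests were made in fits across all genes.

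Androgens drive the growth and function of prostate cells, and the amount of active hormone in a cell depends on enzymes that make it and enzymes that remove it. SRD5A1, a steroid 5-alpha-reductase, turns testosterone into dihydrotestosterone or acts on its precursors. AKR1C3 reduces the 17-keto group of androstenedione to give testosterone, and AKR1C1 and AKR1C2 reduce the 3-keto group of dihydrotestosterone. HSD17B4, a peroxisomal enzyme of fatty acid beta-oxidation, and HSD17B11, an enzyme of lipid droplets and the endoplasmic reticulum, can oxidise 17-beta-hydroxysteroids. Enzymes of the UGT2B family attach glucuronic acid to their substrates, steroids among them, and so take these out of use. Their activity was not measured here. UGT2B15 and UGT2B17 are the members best known for acting on dihydrotestosterone and its metabolites in prostate cells.

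On GRCh38, with GENCODE 44 gene bounds, the UGT2B genes lay close together on chromosome 4, with UGT2B17 at chr4:68537173-68576413, UGT2B15 at chr4:68646597-68670652 and UGT2B11 at chr4:69199951-69214748 on the minus strand, and UGT2B28 at chr4:69280475-69295050 on the plus strand. HSD17B11 lay on the same chromosome at chr4:87336515-87391188 on the minus strand. The AKR1C genes lay on chromosome 10, with AKR1C1 at chr10:4963253-4983283 and AKR1C3 at chr10:5035354-5107686 on the plus strand and AKR1C2 at chr10:4987775-5018031 on the minus strand. SRD5A1 (chr5:6633427-6674386) and HSD17B4 (chr5:119452465-119637199) lay on the plus strand of chromosome 5.

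The UGT2B genes fell into 2 pairs by sequence. The coding sequences of UGT2B11 and UGT2B28 were identical at 97% of aligned bases, and those of UGT2B15 and UGT2B17 at 96.5%, while identity between the pairs was 83.7% to 84.9%. Of the coding positions aligned without a gap, 1300 held the same base in all 4 genes and 190 held 1 base in UGT2B11 and UGT2B28 and another in UGT2B15 and UGT2B17. The first 120 coding bases of each gene, all in the first coding exon, are shown because reads over such stretches are what separates the pairs whose RNA moved in opposite directions below. Capitals mark the 6 positions that set the pairs apart.
UGT2B11, chr4:69214603-69214722: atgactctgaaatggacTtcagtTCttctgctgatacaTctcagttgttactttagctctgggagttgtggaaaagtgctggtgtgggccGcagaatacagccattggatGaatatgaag
UGT2B28, chr4:69280501-69280620: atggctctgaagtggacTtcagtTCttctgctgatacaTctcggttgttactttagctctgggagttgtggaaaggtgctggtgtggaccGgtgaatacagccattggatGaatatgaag
UGT2B15, chr4:68670499-68670618: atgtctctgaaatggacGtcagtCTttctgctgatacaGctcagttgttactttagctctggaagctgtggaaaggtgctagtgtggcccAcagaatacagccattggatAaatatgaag
UGT2B17, chr4:68568365-68568484: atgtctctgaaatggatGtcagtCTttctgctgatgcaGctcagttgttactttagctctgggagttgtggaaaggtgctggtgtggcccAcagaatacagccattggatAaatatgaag

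Fewer bases tell near-identical genes apart. Of the 100-base windows of the main transcript, the share found unchanged in another gene of the family was 9.22% for UGT2B11, 5.63% for UGT2B28, 12.4% for UGT2B15 and 10.6% for UGT2B17. It was 12.6% for AKR1C1, 27.8% for AKR1C2 and 7.82% for AKR1C3, and 0 for SRD5A1, HSD17B4 and HSD17B11. For 50-base windows the share was 40.5% for UGT2B11, 35.2% for UGT2B28, 26.7% for UGT2B15, 23.1% for UGT2B17, 22.7% for AKR1C1, 47.3% for AKR1C2, 18.6% for AKR1C3 and 0.587% for SRD5A1. The gene that shared most 100-base windows was the pseudogene UGT2B25P for UGT2B11 and the pseudogene UGT2B24P for UGT2B28, and the other gene of the pair for UGT2B15, UGT2B17, AKR1C1 and AKR1C2. How reads that match several genes were shared out is not given in the sources used here, so counts within the pairs UGT2B11 with UGT2B28, UGT2B15 with UGT2B17 and AKR1C1 with AKR1C2 are uncertain. The fold changes of the UGT2B genes were repeated with the counts of each pair summed, which does not cover reads shared with pseudogenes. UGT2B11 also shares 18.5% of its exon bases with a long non-coding RNA on the opposite strand, and the strand setting of the counting was not stated.

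Promoter sequence from RefSeq (GRCh38.p14) was found for 8 of the 10 genes, with 2 starts for AKR1C3. UGT2B17 and UGT2B28 had no entry. The 250 bases before the start are shown for UGT2B11 and UGT2B15, the most abundant gene of each pair, whose upstream stretches were identical at 70% of aligned bases. Both lie on the minus strand. Capitals mark the match to the motifs searched, which UGT2B11 has and UGT2B15 lacks.
UGT2B11, chr4:69214749-69214998: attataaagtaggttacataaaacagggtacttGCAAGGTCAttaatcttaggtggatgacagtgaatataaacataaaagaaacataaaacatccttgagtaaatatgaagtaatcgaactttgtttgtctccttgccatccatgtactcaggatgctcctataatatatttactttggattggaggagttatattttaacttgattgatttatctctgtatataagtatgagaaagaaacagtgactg
UGT2B15, chr4:68670653-68670902: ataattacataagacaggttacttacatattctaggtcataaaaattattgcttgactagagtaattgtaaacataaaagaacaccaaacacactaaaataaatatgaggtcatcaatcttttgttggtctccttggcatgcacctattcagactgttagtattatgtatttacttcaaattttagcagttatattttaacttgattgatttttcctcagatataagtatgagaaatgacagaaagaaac

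Each motif was searched on both strands of the 250 bases. The MYC-family E-box CACGTG was found upstream of 0 of the 8 genes and in 6.34% of 35116 such windows of all RefSeq starts. The antioxidant response core TGACNNNGC, a motif of genes such as the AKR1C family, was found upstream of UGT2B11 alone, at position -217 from the start as GCAAGGTCA on the opposite strand, and in 10.9% of all windows. A match is only a run of letters, and the absence of a match says nothing about binding elsewhere. The upstream stretches of AKR1C1 and AKR1C2 were identical at 96.5% of aligned bases, and AKR1C1 shared 70.7% with the first start of AKR1C3 and 69.2% with the second.

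The libraries held 15177071 to 32344170 estimated counts. MYCL itself followed the labels. It rose by 8.26 on the log2 scale (SE 0.12) in C4-2B MYCL and changed by -3.06 (SE 0.15) in NCI-H660 shMYCL, with adjusted p of 3.91e-09 and 4.29e-09 in edgeR's quasi-likelihood test. Most line markers followed the labels. The luminal genes KLK2 and KLK3 had 0 counts in each NCI-H660 library, whereas the luminal keratins did not separate the lines that way, with KRT8 at 408 CPM in C4-2B control and 766 CPM in NCI-H660 shCtrl and KRT18 at 314 and 321 CPM. The neuroendocrine markers INSM1 and NCAM1 had 0 counts in each C4-2B library, while DLL3 (9.28 CPM) and SYP (1.32 CPM) were present at a low level in C4-2B control. The hepatocyte markers, checked because liver is rich in UGT2B and AKR1C enzymes, summed to 1.05 to 3.09 CPM (counts scaled by library size) in C4-2B and 13.9 to 21.7 CPM in NCI-H660, where they were mostly SERPINA1, with FGB at 0 counts throughout. In bulk RNA, fewer cells that express a gene and less RNA per cell cannot be told apart.

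By level per gene length (TPM, a length-corrected share of each library), 7 of the 10 enzymes stood above 1 TPM in both C4-2B groups and 4 in both NCI-H660 groups. In C4-2B control the order ran from UGT2B11 (188 and 199 TPM) through HSD17B4 (108 and 111), UGT2B28 (68.1 and 70.8) and HSD17B11 (20.2 and 22.4) to SRD5A1 (15.1 and 16.5), UGT2B15 (13.1 and 15.3) and UGT2B17 (3.95 and 5.1). Only SRD5A1 and UGT2B15 overlapped among neighbours of that order. UGT2B11 was thus the highest of the 10 in these cells, and the 3 AKR1C genes were at or under 0.0437 TPM.

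In C4-2B MYCL the order began instead with HSD17B4 (105 and 107 TPM), followed by UGT2B11 (65.3 and 79.2), HSD17B11 (27.7 and 32), UGT2B28 (17.4 and 25.7), UGT2B15 (17.7 and 18.6), SRD5A1 (14.9 and 15) and UGT2B17 (5.87 and 6.1). Here UGT2B28 and UGT2B15 overlapped and the other neighbours among these 7 did not.

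In NCI-H660 shCtrl the order was HSD17B11 (64.4 and 71.7 TPM), HSD17B4 (35.6 and 42.3), AKR1C3 (6.97 and 7.89) and SRD5A1 (3.66 and 7.3), and the last pair overlapped. In shMYCL it was HSD17B11 (59 and 60), HSD17B4 (32.8 and 38.4), SRD5A1 (2.63 and 3.36) and AKR1C3 (2.52 and 2.83), again with the last pair overlapping. The other 6 genes stayed at or under 0.384 TPM in each NCI-H660 library, with UGT2B11 and UGT2B28 at 0 counts in all 4.

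**Figure D1:**
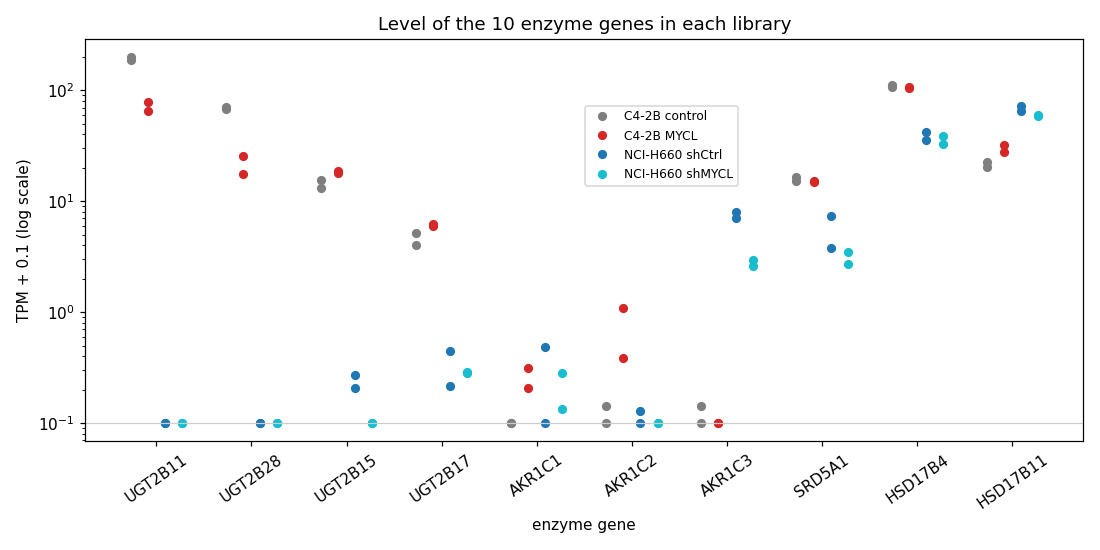
TPM + 0.1 on a log scale for each enzyme gene, with 1 point per library, coloured by group (2 libraries each), and a line at the value of a gene listed at 0. UGT2B11 and UGT2B28 are high in C4-2B and at 0 in NCI-H660, AKR1C3 is seen in NCI-H660 alone above 1 TPM, and HSD17B4 and HSD17B11 stand above 20 TPM in all libraries.

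The first comparison asked how the enzymes differed between C4-2B cells with added MYCL and their controls. UGT2B11 and UGT2B28 fell by more than 2-fold, while UGT2B15, UGT2B17 and HSD17B11 rose by about 1.5-fold. SRD5A1 and HSD17B4 did not pass the test, and the AKR1C genes had too few counts to be tested. To be called, a gene needed both an adjusted p under 0.05 and a log2 fold change of 0.5 or more in size. By that rule 5 of the 7 tested enzymes were called, where 19.9% of the 16866 genes tested were called. The 3 that rose stand beside 11.8% of all tested genes called higher, and the 2 that fell beside 8.12% called lower. The members were chosen with earlier results of these data known, so these counts describe them and are no support for a pattern. The called UGT2B genes form near-identical pairs, whose reads may not be fully separated. The median log2 fold change was 0.09 over the 7 enzymes and -0.002 over all genes.

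UGT2B11 had 10096 and 6934 counts in the control libraries, or 310 and 291 CPM, and 2416 and 2029 counts in the MYCL libraries, or 131 and 116 CPM. Both MYCL libraries lay below both controls. The log2 fold change was -1.28 (SE 0.08, 95% interval -1.47 to -1.10), 2.43-fold lower, with an adjusted p of 2.72e-05 by edgeR's quasi-likelihood test and Benjamini-Hochberg adjustment, which also gave the values that follow.

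UGT2B28, the near-identical partner of UGT2B11, went from 3092 and 2132 control counts to 662 and 465 with MYCL, or 95 and 89.6 CPM against 35.9 and 26.6 CPM. The groups did not overlap. Its log2 fold change was -1.56 (SE 0.12, 95% interval -1.84 to -1.28), 2.95-fold lower, with an adjusted p of 6.25e-05 in edgeR's test. With the 2 genes' counts summed, the log2 fold change was -1.34 (SE 0.09), so the fall did not depend on how reads were divided within the pair. The pair kept its call under each of the 15 alternative processing settings, between -1.43 and -1.20 for UGT2B11 and between -1.79 and -1.34 for UGT2B28.

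Counts for the related pseudogenes UGT2B24P and UGT2B25P, which share windows with this pair, were low in the same libraries. UGT2B24P held 59 and 48 counts in the controls, against 0 and 6 with MYCL. UGT2B25P held 18 and 12, against 1 in each MYCL library. These counts were lower in both MYCL libraries than in both controls, and reads of the pseudogenes and of UGT2B11 or UGT2B28 may not be fully separated.

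UGT2B15 had control counts of 655 and 564, against 569 and 552 with MYCL. Scaled by library, that was 20.1 and 23.7 CPM in control and 30.9 and 31.6 CPM in MYCL, so both MYCL libraries lay above both controls although the raw counts did not. The log2 fold change was 0.51 (SE 0.11, 95% interval 0.28 to 0.75), 1.43-fold higher, with an adjusted p of 0.0054 in edgeR's test. For UGT2B17 the counts were 199 and 179 in the controls, against 175 and 188 with MYCL, or 6.12 and 7.52 CPM against 9.49 and 10.8 CPM, and again the groups did not overlap. Its log2 fold change was 0.57 (SE 0.17, 95% interval 0.18 to 0.97), 1.49-fold higher, with an adjusted p of 0.0301.

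Both rises lay close to the thresholds. With the counts of UGT2B15 and UGT2B17 summed, the log2 fold change was 0.53 (SE 0.10) with an edgeR adjusted p of 0.00432. Without C4-2B control replicate 1, UGT2B15 came to 0.39 and UGT2B17 to 0.42, and without C4-2B MYCL replicate 2 they came to 0.50, just under the minimum before rounding, and 0.48. Neither was then called. UGT2B15 lost its call in 7 of the 15 settings, these 2, no filter on low counts (0.49) and the 4 limma fits on TPM values. UGT2B17 lost it in 8, the same TPM fits included, and also lost its call in DESeq2 (adjusted p of 0.0588) and in the fit of all 4 groups (edgeR adjusted p of 0.115). The sign was positive under each of the 15 settings, from 0.34 to 0.63 for UGT2B15 and from 0.35 to 0.72 for UGT2B17.

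**Figure D2:**
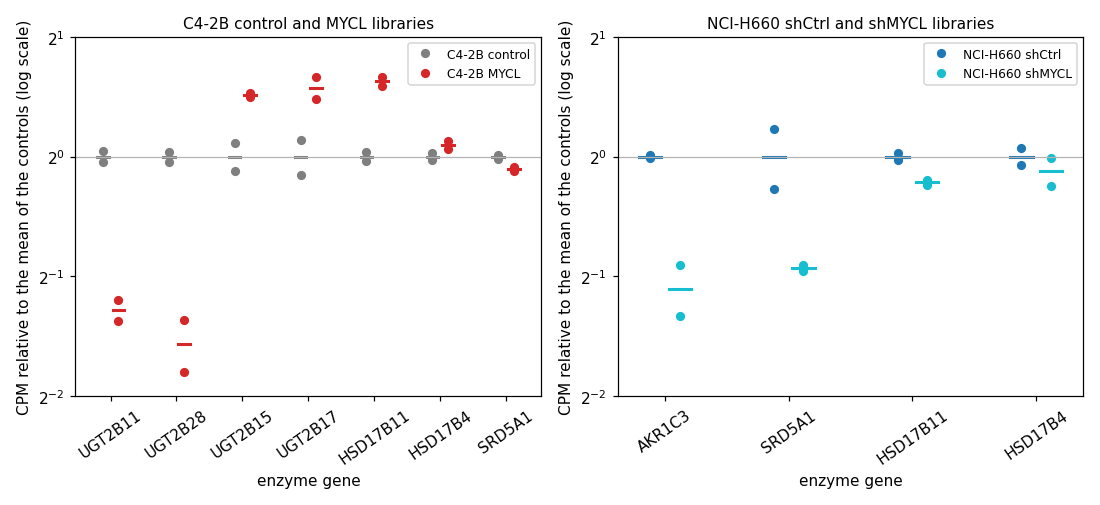
CPM of each tested enzyme in each library divided by the mean of that line's controls, on a log scale, for C4-2B on the left and NCI-H660 on the right, with points for libraries and bars for the mean of 2. In C4-2B the UGT2B11 and UGT2B28 points of the MYCL libraries lie below the controls and those of UGT2B15, UGT2B17 and HSD17B11 above, and in NCI-H660 AKR1C3 and SRD5A1 lie lowest in shMYCL.

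The makeup of the UGT2B message therefore differed between the groups. Summed over the 4 genes, it came to 432 and 412 CPM in control and 207 and 185 CPM in MYCL. UGT2B11 and UGT2B28 made up 93.9% and 92.4% of the sum in control and 80.5% and 77.1% in MYCL. UGT2B15 and UGT2B17 together went from 26.2 and 31.2 CPM to 40.4 and 42.3 CPM. The ratio of UGT2B11 to UGT2B15 counts was 15.4 and 12.3 in control and 4.25 and 3.68 in MYCL. Inside the pairs the ratios moved less, with UGT2B15 to UGT2B17 at 3.29 and 3.15 in control and 3.25 and 2.94 in MYCL, and UGT2B11 to UGT2B28 at 3.27 and 3.25 against 3.65 and 4.36. These CPM and ratios are descriptions, since their group ranges follow from the tests above.

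**Figure D3:**
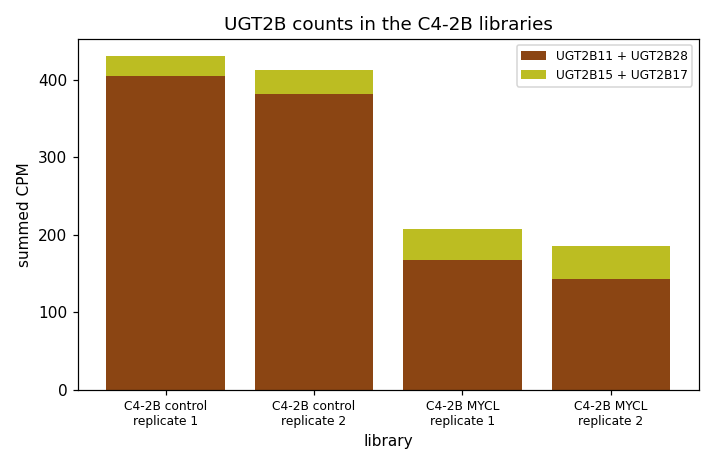
Summed CPM of the UGT2B genes in each C4-2B library as stacked bars from 0, split into UGT2B11 with UGT2B28 and UGT2B15 with UGT2B17. The total is 412 CPM or more in the controls and 207 CPM or less in the MYCL libraries, while the UGT2B15 and UGT2B17 part is larger in the MYCL libraries.

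HSD17B11 showed 842 and 647 control counts and 775 and 700 MYCL counts, or 25.9 and 27.2 CPM against 42 and 40 CPM, with no overlap. Its log2 fold change was 0.63 (SE 0.09, 95% interval 0.43 to 0.83), 1.55-fold higher, with an adjusted p of 0.000797 in edgeR's test. On uncentred TPM values it came to 0.47 or 0.48, under the minimum of 0.5. HSD17B4 gave 7275 and 5118 counts in the controls, against 4217 and 4192 with MYCL, or 224 and 215 CPM against 229 and 240 CPM. It came to 0.09 (95% interval -0.06 to 0.25, edgeR adjusted p of 0.33), a difference smaller than the threshold over its whole interval.

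SRD5A1 had 50.8 and 49.7 CPM in control and 46.2 and 47.4 CPM in MYCL, from 828 to 1652 counts a library. Its log2 fold change was -0.10 (95% interval -0.28 to 0.07, edgeR adjusted p of 0.337), which also kept inside the threshold over its whole interval. On centred TPM values it came to 0.07 instead.

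The AKR1C genes were near the limit of detection in C4-2B, where 3 counts correspond to 0.0922 to 0.172 CPM. AKR1C3 had 1 and 0 control counts, against 0 in both MYCL libraries, and AKR1C1 had 0 in both controls, against 2 and 1 with MYCL, so no difference was detectable at this depth. AKR1C2 was counted 1 and 0 times in the controls, against 4 and 15 times with MYCL. Over the pooled counts that is a ratio of 29.8 with an exact 95% interval of 4.74 to 1238, which covers counting error only. Without the filter on low counts AKR1C2 was called in edgeR at a log2 value of 4.55 (SE 1.39, adjusted p of 0.00715), and most of its counts came from MYCL replicate 2.

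Markers were mixed in the same comparison. Among luminal markers KLK3, the gene of prostate-specific antigen, was called lower at -0.52 (SE 0.07, edgeR adjusted p of 0.000558), while KLK2 at -0.24, TMPRSS2 at 0.39, KRT8 at 0.33 and KRT18 at 0.19 were not called. Of the neuroendocrine list 2 genes were tested and 0 were called. In each of the hepatocyte, fibroblast and leukocyte lists 1 gene was called higher. SERPINA1 of the hepatocyte list rose by 3.16 (SE 0.54), from 0.186 to 1.76 CPM on average, while APOB and FGB had 0 counts in each C4-2B library. COL1A1 of the fibroblast list rose by 0.74, from 10.9 to 18 CPM, with COL1A2, DCN and LUM at 0 counts. CD68 of the leukocyte list rose by 1.53, with PTPRC at 0 counts. The summed levels went from 10.8 to 13.2 CPM over the controls to 19 to 20 CPM for the fibroblast list, and from 10.8 to 13.5 CPM to 32.9 to 37.5 CPM for the leukocyte list. The part of these differences in the enzyme results was not tested.

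Other genes of the pathway went both ways in C4-2B. Their counts stand beside 19.9% of all tested genes called, 11.8% higher and 8.12% lower, and only describe the lists. Of 21 other UGT and UDP-glucuronate supply genes, 5 were tested and 1 fell, UGT8 at -0.67, a ceramide galactosyltransferase. UGT2B10, a further UGT2B gene with 55 to 109 counts, came to -0.07 (SE 0.25). UGDH, which makes the UDP-glucuronate that the UGT2B enzymes use, came to 0.47 (SE 0.08), just under the minimum. Of 39 other genes of androgen synthesis and interconversion, 27 were tested, 4 rose and 1 fell. HSD17B6, an oxidising 3-alpha-hydroxysteroid enzyme, rose by 1.73 (SE 0.19), and HSD17B8 rose by 0.82 and CYP11A1, the side-chain cleavage enzyme, by 0.75. STS, the steroid sulfatase that frees sulfated precursors, fell by 0.97 on the log2 scale (SE 0.12). Of 15 peroxisomal beta-oxidation genes, the setting of HSD17B4, all were tested, 4 rose (ACOT8, PHYH, ACOX3 and EHHADH, by 0.54 to 0.85) and 1 fell, the carnitine octanoyltransferase CROT at -0.95. The list of steroid hydroxylation and transport genes had 0 of 5 called and the other aldo-keto reductases 0 of 2. Medians of these 5 lists lay between -0.14 and 0.14, beside -0.002 for all genes.

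The second comparison asked how the enzymes differed when MYCL was knocked down in NCI-H660. SRD5A1 and AKR1C3, enzymes on the way to dihydrotestosterone, fell by about 2-fold. HSD17B4 and HSD17B11 did not pass the test. Of the 4 enzymes with enough counts, 2 were called, beside 16.2% of the 16980 genes tested, and both were lower, beside 8.99% called lower. Their median was -0.57 and that of all genes -0.003. With 4 genes tested, this is a description of those genes.

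SRD5A1 had 231 and 178 counts in shCtrl and 94 in both shMYCL libraries, or 13.6 and 9.63 CPM against 6.19 and 6 CPM. The groups did not overlap, although the shCtrl libraries lay well apart. Its log2 fold change was -0.93 (SE 0.21, 95% interval -1.37 to -0.49), 1.9-fold lower, with an adjusted p of 0.00416 in edgeR's test. On TPM values shCtrl read 7.3 and 3.66 and shMYCL 2.63 and 3.36. There limma gave -0.64 on the log2(TPM + 1) scale with an adjusted p of 0.175. The call was lost in all 4 limma fits on TPM values, with limma's adjusted p up to 0.418.

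AKR1C3 had 62 and 69 counts in shCtrl and 30 and 23 in shMYCL, or 3.66 and 3.73 CPM against 1.97 and 1.47 CPM, with no overlap. Its log2 fold change was -1.10 (SE 0.34, 95% interval -1.83 to -0.37), 2.14-fold lower, with an adjusted p of 0.0277 in edgeR's test. The counts are low and the call was not stable. In DESeq2 the adjusted p was 0.0869 and in the fit of all 4 groups 0.0912 by edgeR. It was 0.0831 without NCI-H660 shCtrl replicate 1, 0.0672 without NCI-H660 shCtrl replicate 2 and 0.153 without NCI-H660 shMYCL replicate 2, all in edgeR's test. The direction was the same under all 15 settings, between -1.44 and -0.90.

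HSD17B11, the most abundant of the 10 in this line, had 64.3 and 61.7 CPM in shCtrl and 55 and 53.6 CPM in shMYCL, from 835 to 1140 counts a library. It came to -0.21 (95% interval -0.44 to 0.01, edgeR adjusted p of 0.161). HSD17B4 had 59.5 and 54 CPM in shCtrl and 48 and 56.2 CPM in shMYCL, which overlap, and came to -0.12 (95% interval -0.37 to 0.13, edgeR adjusted p of 0.489). Changes beyond 0.5 lay outside both intervals.

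The remaining enzymes could not be tested in NCI-H660. UGT2B15 had 3 and 2 counts in shCtrl and 0 in both shMYCL libraries, and UGT2B17 had 2, 7, 3 and 3 over the 4 libraries. AKR1C1 had at most 3 counts and AKR1C2 at most 1. At this depth, where 3 counts are 0.162 to 0.197 CPM, no difference was detectable.

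**Figure D4:**
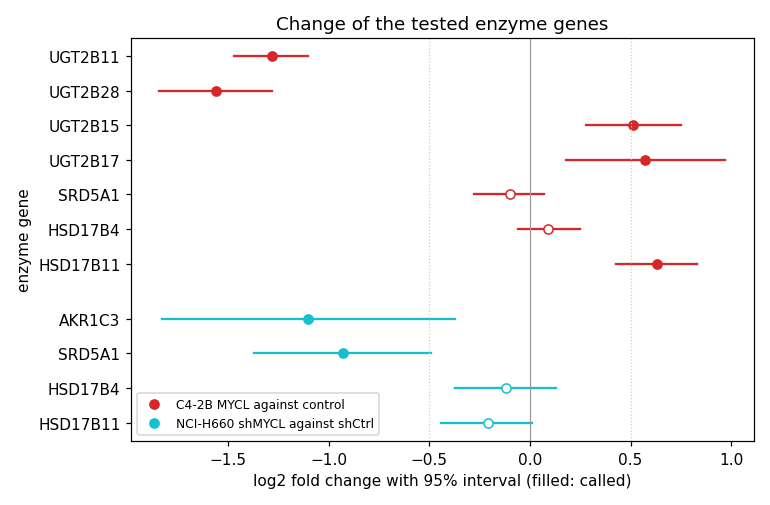
Log2 fold change of each tested enzyme with its 95% interval, for C4-2B MYCL against control and for NCI-H660 shMYCL against shCtrl, with filled points for called genes and dotted lines at -0.5 and 0.5. UGT2B11 (-1.28) and UGT2B28 (-1.56) stand apart from UGT2B15, UGT2B17 and HSD17B11 (0.51 to 0.63) in C4-2B, and AKR1C3 (-1.10) and SRD5A1 (-0.93) are lower in NCI-H660 shMYCL.

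Some neuroendocrine markers fell in the same libraries. INSM1 was called at -0.65 (SE 0.11) and SOX2 at -1.04 (SE 0.11), while CHGA at -0.11, SYP at 0.18, NCAM1 at -0.22 and DLL3 at -0.50 were not called. In the fibroblast list COL1A2 was called at -0.68, from 106 to 66 CPM. It made up most of the list's sum, which went from 115 to 117 CPM in shCtrl to 73.1 to 79 CPM in shMYCL. COL1A1 went from 8.09 to 9.19 CPM and LUM from 1.69 to 0.841 CPM on average, neither called, and DCN had 0 counts throughout. The part of these markers in the falls of AKR1C3 and SRD5A1 was not tested. The counts of the other lists stand beside 16.2% of all tested genes called, with 8.99% called lower, and only describe the lists. Of 24 tested genes of androgen synthesis and interconversion 1 was called, HSD17B8 at -1.49 (SE 0.21). Of 15 peroxisomal beta-oxidation genes 2 fell, AMACR, the racemase of branched-chain fatty acids, at -1.23 (SE 0.12) and EHHADH at -0.66. Of 6 tested UGT and UDP-glucuronate supply genes 2 fell, including UGT3A2 at -2.90 (SE 0.32), and UGT8 rose by 0.61. Of 9 tested steroid hydroxylation and transport genes 3 rose, among them CYP1A1, an estrogen-hydroxylating cytochrome P450, by 1.07 (SE 0.12) and the exporter gene ABCC4 by 0.62. The other aldo-keto reductases had 0 of 4 called.

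The difference between the lines in the effect of MYCL, taken as high against low MYCL in C4-2B minus the same in NCI-H660, could be estimated for the 3 enzymes tested in both lines. Of all 19605 genes in that fit 17.9% were called. SRD5A1 was called at -1.03 (SE 0.21, 95% interval -1.49 to -0.58, edgeR adjusted p of 0.00427), with high MYCL beside more SRD5A1 RNA in NCI-H660 and no called change in C4-2B. HSD17B4 came to -0.03 (95% interval -0.33 to 0.27, edgeR adjusted p of 0.964), and HSD17B11 to 0.41 (95% interval 0.13 to 0.69, edgeR adjusted p of 0.041), under the fold minimum. The UGT2B and AKR1C genes had almost no counts in the other line, so a difference in their change could not be estimated. This comparison uses the same libraries as the first 2. The line, the vector, and the direction and size of the MYCL change cannot be told apart in it. MYCL itself moved by 8.26 on the log2 scale in C4-2B MYCL and by -3.06 in NCI-H660 shMYCL.

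The last comparison set the lines against each other, NCI-H660 shCtrl against C4-2B control, which share their control libraries with the comparisons above. The lines differ in most genes, and 69.8% of the 19605 genes tested were called. All UGT2B members were higher in C4-2B. Against the 3 counts per library that 0 counts allow, UGT2B11 was at least 1996-fold higher and UGT2B28 at least 612-fold higher in C4-2B control. UGT2B15 was higher by a ratio of 171 (95% counting interval 73.3 to 529) and UGT2B17 by 29.5 (15.4 to 65.1). UGT2B10, with 109 and 91 counts in C4-2B control, was also at 0 in all NCI-H660 libraries. With MYCL high in C4-2B and low in NCI-H660, the bounds were smaller for the falling pair, at least 707-fold for UGT2B11 and at least 179-fold for UGT2B28. Such bounds also depend on library depth, so a smaller bound is not by itself a smaller difference.

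AKR1C3 was the reverse, with 131 pooled counts in NCI-H660 shCtrl against 1 in C4-2B control, a ratio of 186 (95% counting interval 32.9 to 7415). SRD5A1 was 4.84-fold lower in NCI-H660 shCtrl (log2 fold change of -2.28, SE 0.14), and HSD17B4 4.32-fold lower (-2.11, SE 0.10). HSD17B11 was 2.13-fold higher (1.09, SE 0.09), and edgeR's adjusted p was at most 1.21e-07 for these 3. All 8 tested enzymes were called, but the UGT2B genes and AKR1C3 passed the low-count filter through a single line, so that count is no support for a pattern. Among the other lists, 16 of 28 tested genes of androgen synthesis and interconversion were lower in NCI-H660 and 6 higher, and 9 of 15 peroxisomal genes were lower and 3 higher. These counts stand beside 69.8% of all tested genes called in either direction. The abundant cytochrome b5 gene CYB5A, a partner of androgen synthesis, was at -3.62 on the log2 scale, and SRD5A3, a further member of the SRD5A family, stood at -3.31.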

How the data were processed

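The authors deposited gene-level estimated counts per library, without normalization, from poly(A)-selected paired-end reads on hg38, and 22.4% of the non-zero values lie more than 0.01 from a whole number. The aligner and the counting tool are not given in the sources used here. The deposited TPM values cover 65535 of the 78691 genes, all members included. The study's methods describe TPM made from counts and gene lengths of Ensembl annotation. The values do not follow a single length per gene across libraries. SRD5A1 in NCI-H660 shCtrl replicates 1 and 2 had 13.6 and 9.63 CPM but 7.3 and 3.66 TPM. UGDH in the same libraries had 64.8 and 62.2 CPM and 47 and 44 TPM.

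Estimated counts were rounded and fitted per cell line in edgeR 4.0.16 (R 4.3.3) with TMM factors, filterByExpr and the quasi-likelihood test. The comparison of the lines and the difference between them used a fit of all 4 groups. P-values were adjusted over all genes by Benjamini-Hochberg. CPM used effective library sizes. Standard errors were derived from the fold change and the test statistic. The fits were tested on simulated data. Library totals of 15177071 to 32344170 and a biological coefficient of variation of 0.0829 in C4-2B and 0.0965 in NCI-H660 set the precision. Intervals of pooled counts and the floor of 3 counts cover counting error only. The study's methods name DESeq2, which was run as an alternative (1.42.0), as was limma 3.58.1 on TPM values with 1 or 0.1 added before the log2, with genes of at least 1 TPM in 2 libraries or unfiltered. Other alternatives were relative log expression factors, no filter, at least 10 counts in every library, a replicate block, other fold minimums, near-identical pairs summed (UGT2B11 with UGT2B28, UGT2B15 with UGT2B17, AKR1C1 with AKR1C2), and leaving out each library.

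The members and lists were chosen with earlier results of these data known. All 10 members are named in each comparison, with MYCL as a check of the labels. Other list genes come from the called genes with an average log2 CPM of at least 1 and the largest changes, at most 12 per comparison. UGT2B10, UGDH, the markers and the pseudogenes were named after their values were seen. Sequences were handled with Python 3.11.15 and Biopython 1.88. Positions are from GENCODE 44, in which all 10 members were found. Some marker genes, and marker sums that hold them, are not reported here.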

Additional observations from a re-analysis of the deposited data

Results flagged for a closer look

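The SRD5A1 change with MYCL differed between the lines by a test of the difference itself. The difference, high against low MYCL in C4-2B minus the same in NCI-H660, was -1.03 on the log2 scale (SE 0.21, edgeR adjusted p of 0.00427). SRD5A1 came to -0.10 for MYCL against control in C4-2B, which is high against low MYCL. It came to -0.93 for shMYCL against shCtrl in NCI-H660, which is low against high MYCL and enters the difference with its sign turned. Both shMYCL libraries lay below both shCtrl libraries. On log2(TPM + 1) values the difference was -0.72 and was not called by limma (adjusted p of 0.195). The line, the vector, and the direction and size of the MYCL change cannot be told apart in this difference.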

How the results depend on the processing

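Over the enzymes and alternatives, 293 member values kept their direction and side of the threshold, 30 lost their call and 7 changed sign. The settings with another fold minimum are not in this tally. It does hold the values between the lines, where none moved and where the UGT2B genes and AKR1C3 passed the filter through a single line. The tally is therefore no measure of how stable the calls within a line were. UGT2B11 and UGT2B28 kept their call in C4-2B under each alternative. The number of enzymes called in C4-2B, 5 by the main fit, was 2 in limma on log2(TPM + 1), on log2(TPM + 0.1) and without the TPM filter, 3 on centred TPM, 2 at a log2 fold change of at least 1, and 3 to 6 when a library was left out, the lowest without control replicate 1 or MYCL replicate 2 and the highest without MYCL replicate 1, where AKR1C2 was added. With no filter on low counts it was also 5, but with AKR1C2 in place of UGT2B15. In NCI-H660 the 2 enzymes called became 1 in DESeq2, in the fit of all 4 groups, in limma on log2(TPM + 1), on log2(TPM + 0.1) and on centred TPM, 1 at a log2 fold change of at least 1, 0 in limma without the TPM filter (1 at an unadjusted p under 0.05), and 1 to 2 when a library was left out. For the difference, the 1 enzyme called became 0 in limma on log2(TPM + 1) and on centred TPM (0 and 1 at an unadjusted p under 0.05), and 2, with HSD17B11, with no minimum on the fold change.

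Changes of sign were small and uncalled. HSD17B4 in C4-2B came to -0.05 on the 3 uncentred TPM scales and SRD5A1 to 0.07 on centred TPM. For HSD17B4 the difference became 0.02 without C4-2B MYCL replicate 1, 0.03 without NCI-H660 shCtrl replicate 1 and 0.07 without NCI-H660 shMYCL replicate 1, in a range of -0.16 to 0.07 over the libraries left out. The cause of these shifts was not tested. On log2(TPM + 1) the median of all genes moved to -0.142 in C4-2B and to 0.525 between the lines.

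Over all genes, the C4-2B count of 3355 became 1940 in limma without the TPM filter, 5895 with no fold minimum and 1411 at a minimum of 1. The NCI-H660 count of 2745 became 1702, 1600 and 1692 in limma on log2(TPM + 1), log2(TPM + 0.1) and centred TPM, 1 without the TPM filter, 4204 with no fold minimum and 1022 at a minimum of 1.

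Same-numbered libraries shared only a number, with a correlation of deviations of 0.0328 in C4-2B and 0.0457 in NCI-H660 over 2 pairs each. A replicate block gave 5 enzymes and 3536 genes in C4-2B, 2 and 2949 in NCI-H660, 1 and 3576 for the difference, and 8 and 13128 between the lines. Where leaving out a library left a group with 1, that library was assumed to vary like the others. Depth limits the AKR1C genes in C4-2B and the UGT2B genes in NCI-H660, which lie at or near 3 counts.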
